A study of Mus musculus with 6 samples.

Results

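Amino acid transporters were followed here in whole mouse liver after endothelial deletion of the kinase TAK1. The genes were taken by name, under a rule chosen with earlier results of these data known. The rule takes every row of the deposited table whose symbol begins with Slc1a, Slc3a, Slc6a, Slc7a, Slc36a, Slc38a or Slc43a and a digit. It leaves out Slc1a2 and Slc38a3. This gave 62 of 24318 rows. All mice were C57BL/6 with the genotype VEcadCreERT2/TAK1flox/flox, that is, loxP-flanked TAK1 alleles and a tamoxifen-inducible Cre recombinase under the VE-cadherin promoter, which is active in endothelium. The 3 control libraries are from liver of mice given no treatment and the 3 knockout libraries from liver of mice given tamoxifen, and the labels do not say whether each is a separate animal. The deletion and the drug cannot be told apart; age and time after treatment are not given in the sources used here. RNA of the whole organ was sequenced, so fewer cells of a type and less RNA per cell cannot be told apart in any value below. The question is how the liver's transporter transcripts differ once TAK1 is lost from its vessels.

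These families move amino acids across membranes. Families 1 and 38 largely use the sodium gradient to bring neutral or acidic amino acids into cells, and family 36 uses protons. Family 7 contains cationic transporters that work alone and light chains that reach the membrane only when bound to a heavy chain of family 3. Family 43 contains facilitators, and family 6 carries glycine, taurine, betaine, creatine, GABA and the monoamines as well as neutral amino acids. In liver, uptake by hepatocytes feeds amino acid breakdown and the urea cycle, while other cells use exchangers to supply growth and the sensor kinase complex mTORC1.

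Values are FPKM, fragment counts scaled by transcript length and library size, so levels can be compared between genes. Each log2 fold change sets knockout over control after 0.5 FPKM was added to every value, which understates the change of low genes, and stands with its standard error (SE). Fold values without log2 are ratios of mean FPKM, and group values are mean ± SD over 3 libraries. A gene was tested with limma if its mean over the 6 libraries reached 0.5 FPKM, and it passed at a Benjamini-Hochberg adjusted p under 0.05 over all 11842 genes tested. Absolute depth is unknown. If the values were scaled by library size alone, the steps between low values put the libraries at 0.921 to 1.08 times the depth of control 1. The scaling method is not stated in the sources used here. Liver identity was plain, with 7 hepatocyte markers summing to 15050 to 20596 FPKM in controls and 13617 to 14982 in knockouts. Neutrophil markers (6 genes) summed to 35.5 to 72.4 FPKM in controls and 1650 to 1734 in knockouts, monocyte markers (5 genes) to 2.2 to 6.60 and 135 to 149, and macrophage markers (7 genes) to 298 to 637 and 584 to 689. Endothelial markers (8 genes) summed to 96.5 to 150 FPKM in controls and 43.1 to 53.1 in knockouts. Pericentral hepatocyte markers (6 genes) went from 4743 to 5232 down to 2067 to 2533, and periportal markers (5 genes) from 2028 to 2295 down to 1168 to 1455. T and NK markers (6 genes, with Cd8a at 0 in every control) summed to 2.97 to 5.25 and 8.52 to 12.4, and B and plasma cell markers (5 genes) to 2.24 to 6.14 and 14.2 to 30.4. Stellate cell and fibroblast markers (7 genes) summed to 160 to 205 and 292 to 354, and cholangiocyte markers (5 genes) to 29.1 to 44.4 and 40.8 to 52.0. Erythroid and platelet markers (7 genes) summed to 119 to 274 and 252 to 771, and markers of dividing cells (5 genes) to 2.49 to 6.16 and 13.2 to 17.9. Control 3 lay nearest the knockouts in the macrophage sum, at 637 FPKM against 298 and 311 in the other controls. The same held for its neutrophil, monocyte, B and plasma cell, stellate cell, cholangiocyte, dividing cell and hepatocyte sums, zonal ones included. It did not hold for the T and NK, endothelial, or erythroid and platelet sums.

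Of the 62 genes, 27 were abundant enough to be tested, and 11 of these passed: 7 were higher and 4 lower in knockout livers. That is 40.7% of the tested members, beside 27.0% of all genes tested (14.1% higher and 13% lower). The member share came nearer to that of all genes without control 1 (22.2% beside 18.4%), control 2 (18.5% beside 17.7%), knockout 1 (22.2% beside 21.4%) or knockout 2 (25.9% beside 21.7%), and without a filter on low values (21.4% beside 19.2%). In all 11 the 3 knockout libraries lay wholly above or wholly below the 3 controls. Such separation held for 16 of the 27 members, or 59.3%, beside 43.5% of all genes tested; 11 lay above the controls (22.4% of all genes) and 5 below (21.1%). The median log2 fold change over the 27 was 0.38, against -7e-04 over all genes. Rescaling each library to the same summed FPKM left 5 members higher and 4 lower, moved the median of all genes to -0.11 and moved the higher share of all calls from 52.1% to 39.5%.

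The risers were Slc1a4, Slc7a8, Slc38a1, Slc43a2, Slc7a5, Slc7a6 and Slc6a6, which with the exception of the taurine carrier Slc6a6 are carriers of neutral amino acids, Slc7a6 carrying cationic ones as well. The fallers were Slc6a13, Slc6a9, Slc6a12 and Slc38a4. Slc1a4, Slc7a8, Slc38a1, Slc6a6 and Slc6a13 passed under all 14 alternatives run for each of them, including each library left out in turn. The other 6 calls were lost when any 1 of several libraries was left out, as given with each gene. Leaving out a library also means fewer samples. Neutrophil, monocyte, T and NK, B and plasma cell, stellate cell and dividing cell marker sums were higher in every knockout than in every control. Endothelial, zonal hepatocyte and general hepatocyte marker sums were lower in every knockout than in every control. For the general hepatocyte sum the gap was narrow, with controls down to 15050 FPKM and knockouts up to 14982. Single markers were less uniform than the sums. Called lower were 4 of 8 endothelial, 5 of 6 pericentral, 4 of 5 periportal and 3 of 7 general hepatocyte markers. In the same lists, 1 periportal and 1 general hepatocyte marker were higher. Called higher were 6 of 6 neutrophil, 5 of 5 monocyte, 4 of 5 B and plasma cell and 5 of 7 stellate cell markers. So were 1 of 5 tested T and NK and 4 of 4 tested dividing cell markers. Of all genes, 14.1% were higher and 13% lower. The part of these cells in the transporter changes was not tested.

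**Figure D1:**
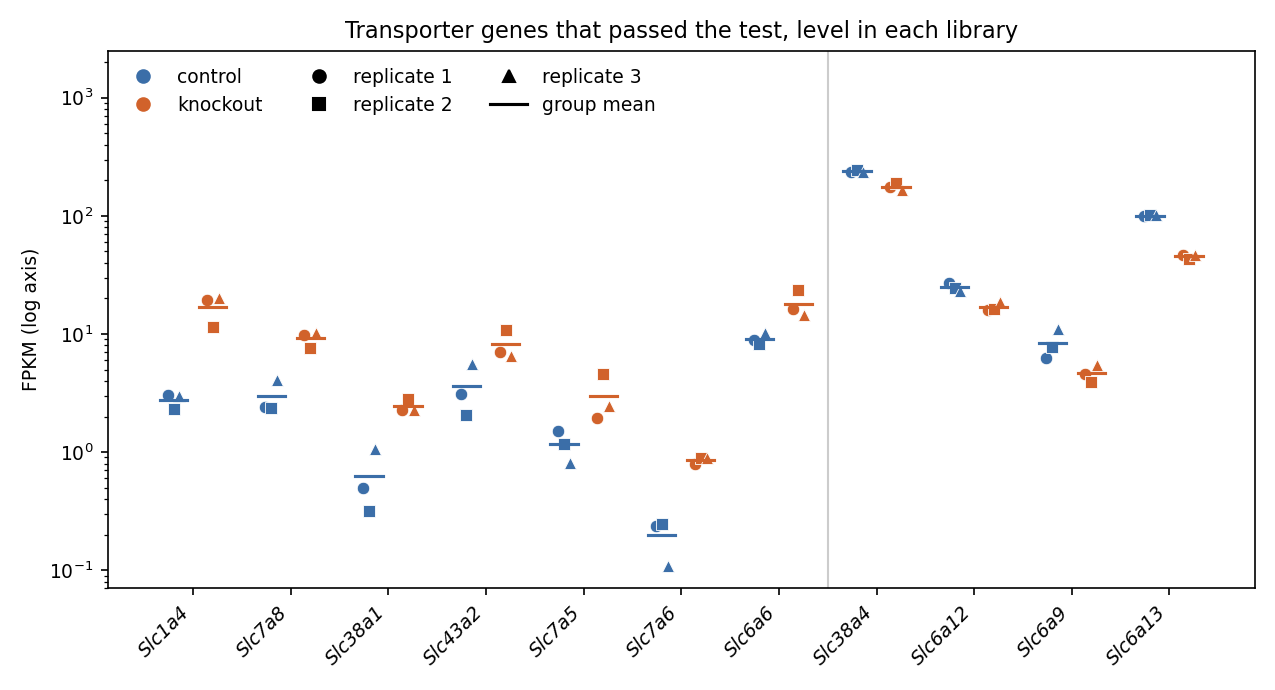
FPKM (log axis) of the 11 transporter genes that passed the test, in each of 3 control and 3 knockout libraries (points, shaped by replicate) with group means (lines). Left of the grey line are the 7 genes that were higher and right of it the 4 that were lower; control and knockout points do not overlap for any of them.

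**Figure D2:**
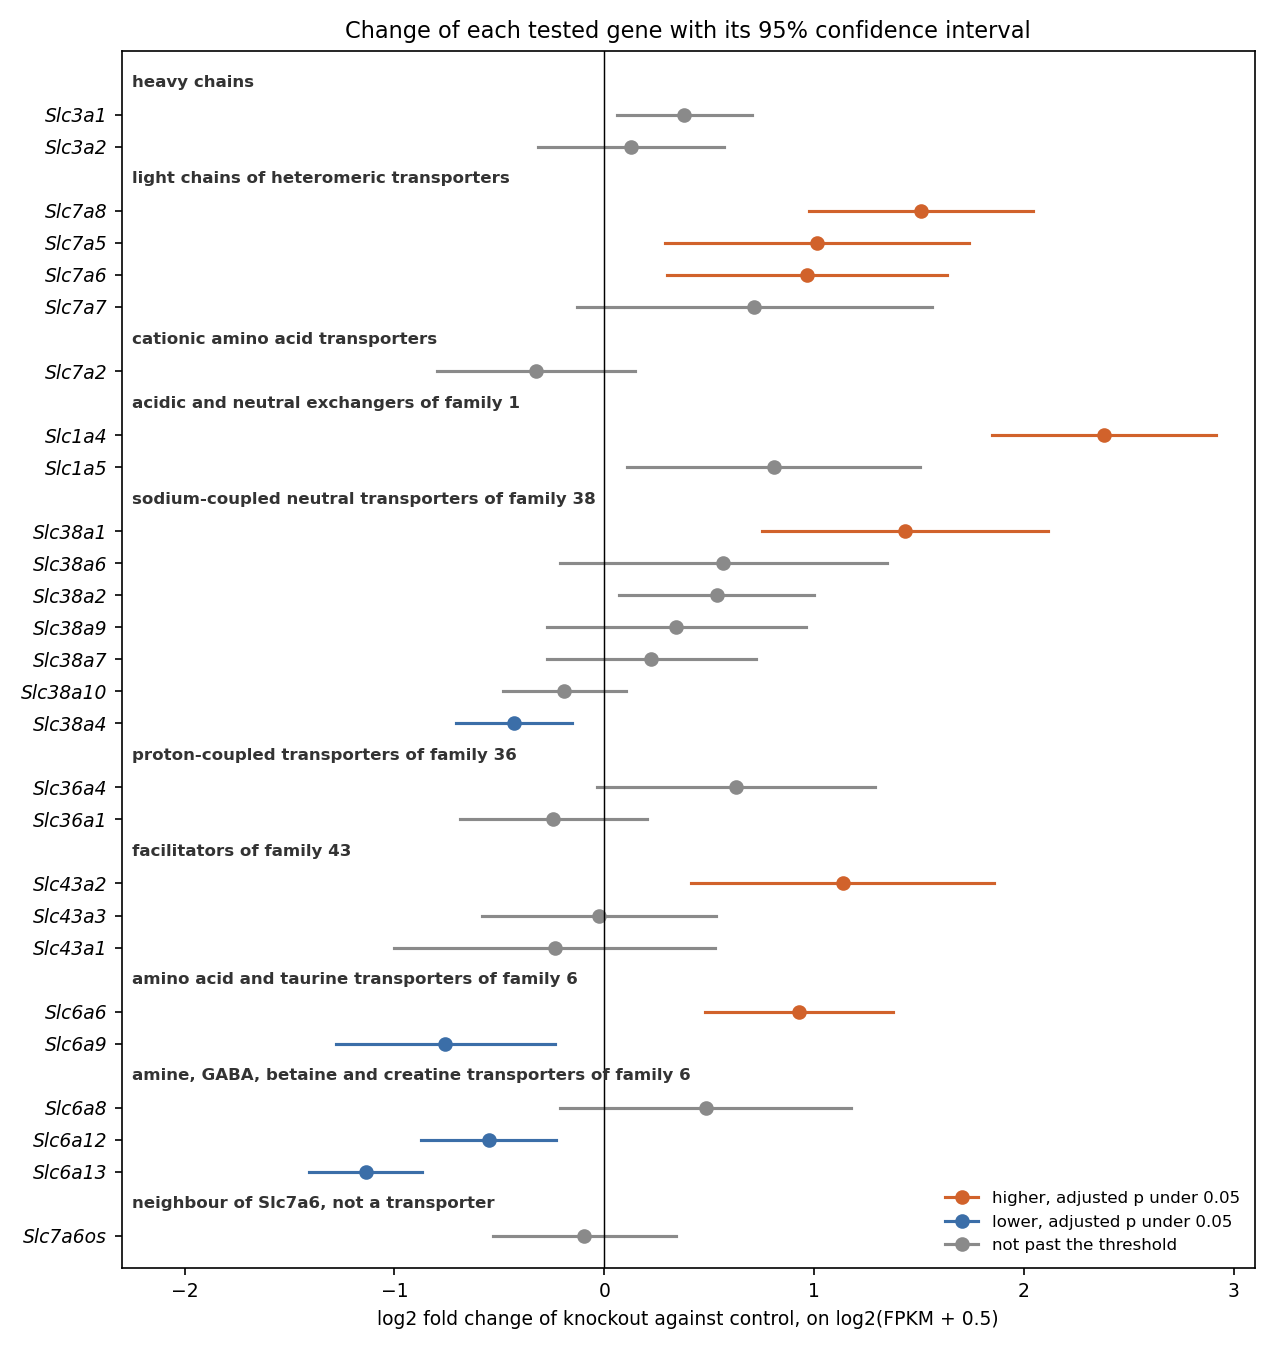
Log2 fold change of knockout against control with its 95% confidence interval for the 27 tested genes, grouped by role. The point of Slc1a4 lies farthest to the right, followed by that of Slc7a8, and the point of Slc6a13 lies farthest to the left.

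In family 1, the neutral exchanger Slc1a4 showed the largest change of the 27 tested genes. Slc1a4 encodes ASCT1, which exchanges alanine, serine, cysteine and threonine. It measured 3.02, 2.32 and 2.99 FPKM in controls and 19.4, 11.5 and 20.1 FPKM in knockouts. The lowest knockout was thus well above the highest control, and the mean rose 6.11-fold, from 2.78 ± 0.395 to 17.0 ± 4.77 FPKM (log2 fold change 2.38, SE 0.24, limma adjusted p = 0.000233). Its paralogue Slc1a5, the glutamine exchanger ASCT2, measured 2.76, 2.36 and 1.35 FPKM in controls and 4.36, 5.56 and 2.65 in knockouts. Knockout 3 fell within the control range, and Slc1a5 did not pass (log2 fold change 0.81, 95% confidence interval 0.11 to 1.5, limma adjusted p = 0.0830). It did pass without knockout 3 (log2 fold change 1.07, limma adjusted p = 0.0393). Of the acidic amino acid carriers of the family, Slc1a2 was left out by the rule, and its level is not given here. The others were barely seen: Slc1a1 and Slc1a7 were listed at 0 throughout, and Slc1a3 and Slc1a6 reached at most 0.192 and 0.238 FPKM.

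The RefSeq window around the Slc1a4 start site (250 bases before it and 50 after) holds the letters of a C/EBP-ATF response element, the element through which ATF4 acts on amino acid response genes, and the 30 bases that carry it are shown for that reason. They lie at chr11:20332699-20332728 in GRCm38.p6, minus strand, and run from 15 bases before the start to base 15 of the first exon; the capitals mark the match to TGATGNAAN on the opposite strand. The file's own build is mm9, so the place is given only for the reference.
Slc1a4: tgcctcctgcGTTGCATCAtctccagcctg
Matches of this motif on either strand were in 3.95% of 32851 windows of all genes and in 3 of 36 windows of the 20 tested members that have one, the other matches being in windows of Slc7a7.

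Among the heteromeric transporters, the steadiest change was in the light chain Slc7a8. Of 4 tested light chains, 3 rose and 0 fell, beside 14.1% of all genes higher. Of these 3, Slc7a6 was tested only through its knockout values. The calls of Slc7a5 and Slc7a6 were lost when any 1 of several libraries was left out. The heavy chains Slc3a1 and Slc3a2 did not pass. Slc7a8 encodes LAT2, an exchanger of neutral amino acids. It measured 2.40, 2.37 and 4.11 FPKM in controls and 9.79, 7.56 and 10.2 FPKM in knockouts. Control 3 was the highest control, yet all knockouts exceeded it, and the mean rose 3.1-fold, from 2.96 ± 0.999 to 9.17 ± 1.41 FPKM (log2 fold change 1.51, SE 0.24, limma adjusted p = 0.00197).

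Slc7a5 encodes LAT1, which exchanges large neutral amino acids and is typical of dividing and activated cells. It measured 1.51, 1.18 and 0.812 FPKM in controls and 1.93, 4.57 and 2.46 in knockouts. The groups did not overlap, but knockout 1 was close to control 1 (log2 fold change 1.01, SE 0.32, limma adjusted p = 0.0434). The call was lost without control 1, control 2, control 3, knockout 2 or knockout 3 (log2 values from 0.71 to 1.16, limma adjusted p of 0.0596 to 0.136) and with rescaling to the same summed FPKM (0.0617). Markers of dividing cells were also higher in every knockout, and their part in this rise was not tested.

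Slc7a6, the light chain y+LAT2 that exchanges cationic for neutral amino acids, measured 0.236, 0.245 and 0.109 FPKM in controls and 0.792, 0.883 and 0.898 in knockouts. All knockouts were higher (log2 fold change 0.97, SE 0.30, limma adjusted p = 0.0384), but only its knockout values reached the minimum for testing, so that being tested already required a difference. Its values are whole multiples of a step that follows the scaling of each library (within 0.06 of a whole number). They are 2, 2 and 1 steps in controls and 7, 7 and 7 in knockouts, so they may rest on few fragments. The call was lost when any 1 of the 6 libraries was left out (log2 fold changes of 0.87 to 1.02, limma adjusted p of 0.0683 to 0.0849) and with a pseudocount of 0.1 (0.0524). Its neighbour Slc7a6os, which the name rule also takes but which encodes no transporter, measured 6.97 ± 1.40 FPKM in controls and 6.43 ± 0.633 in knockouts (log2 fold change -0.09, 95% confidence interval -0.53 to 0.34, limma adjusted p = 0.757).

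Slc7a7, the related light chain y+LAT1 that is also expressed by macrophages, did not pass. It measured 1.28, 1.79 and 4.20 FPKM in controls and 4.83, 2.57 and 4.67 in knockouts, so that control 3 lay inside the knockout range (log2 fold change 0.71, 95% confidence interval -0.13 to 1.56, limma adjusted p = 0.192). It passed without control 3 (log2 fold change 1.12, limma adjusted p = 0.0335), the library whose macrophage marker sum also lay within the knockout range; the part of macrophages in the Slc7a7 values was not tested.

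The common heavy chain Slc3a2, or CD98, partners these light chains and measured 27.8, 27.8 and 25.2 FPKM in controls and 21.7, 31.4 and 37.4 in knockouts. Knockouts spread to both sides of the controls (log2 fold change 0.13, 95% confidence interval -0.32 to 0.57, limma adjusted p = 0.675). The heavy chain Slc3a1, or rBAT, was the more abundant of the pair, at 114, 104 and 103 FPKM in controls and 142, 160 and 120 in knockouts. Its groups did not overlap, yet it did not pass (log2 fold change 0.38, 95% confidence interval 0.06 to 0.70, limma adjusted p = 0.0775), except without knockout 3 (log2 fold change 0.49, limma adjusted p = 0.0410). Slc7a9, the known partner of Slc3a1 in the kidney, was listed at 0 in every library, and its other partner Slc7a13 was above 0 only in knockout 1, at 0.206 FPKM. The cystine light chain Slc7a11 did not exceed 0.0855 FPKM, and Slc7a10 and Slc7a12 were listed at 0 in all 6 libraries. In GENCODE M21, 26.5% of the exon bases of Slc3a1 overlap Prepl on the opposite strand; the sources used here do not say whether counting used strand, so reads of such pairs cannot be told apart.

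Among the cationic transporters, only Slc7a2 was abundant. Slc7a2 encodes CAT2, the arginine carrier of liver. It measured 60.1, 56.6 and 71.3 FPKM in controls and 52.9, 64.2 and 35.9 in knockouts, and the groups overlapped (log2 fold change -0.33, 95% confidence interval -0.80 to 0.14, limma adjusted p = 0.285). Slc7a1, or CAT1, the widespread cationic carrier that liver normally holds low, lay below the minimum for testing, at 0.0610, 0.127 and 0.281 FPKM in controls and 0.918, 0.781 and 0.596 in knockouts. All knockouts were above all controls, and Slc7a1 was the only one of the 15 untested genes with any signal for which that held. Slc7a3 and Slc7a4 did not exceed 0.217 and 0.507 FPKM, and Slc7a14 was listed at 0.

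Family 38 contained both the most abundant member and changes in opposite directions. Slc38a4 encodes SNAT4, the system A carrier for which hepatocytes are known. It measured 234, 244 and 236 FPKM in controls and 174, 189 and 167 in knockouts. Each group was tight and the groups were clearly apart, with a mean 1.35-fold lower in knockouts (237.9 ± 5.10 against 176.7 ± 11.3 FPKM, log2 fold change -0.43, SE 0.12, limma adjusted p = 0.0294). With so small a change the call was lost without control 1, control 2, knockout 1 or knockout 3 (log2 values from -0.44 to -0.39, limma adjusted p of 0.0765 to 0.110) and without the variance trend (0.0780).

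Slc38a1 encodes SNAT1, a system A carrier prominent outside hepatocytes. It measured 0.499, 0.317 and 1.07 FPKM in controls and 2.28, 2.80 and 2.25 in knockouts. Control 3 was the highest control and still under every knockout; the mean rose 3.89-fold, from 0.628 ± 0.392 to 2.44 ± 0.311 FPKM (log2 fold change 1.43, SE 0.30, limma adjusted p = 0.00768). Slc38a2, or SNAT2, the form that cells induce when amino acids are scarce, measured 25.3, 28.8 and 28.5 FPKM in controls and 53.0, 41.6 and 29.2 in knockouts. The knockouts ranged from just above the controls to well above them, and Slc38a2 did not pass (log2 fold change 0.54, 95% confidence interval 0.07 to 1.0, limma adjusted p = 0.0837). It passed only without knockout 3 (log2 fold change 0.76, limma adjusted p = 0.0147). In RefSeq on GRCm38.p6, Slc38a1, Slc38a2 and Slc38a4 stand next to each other on chromosome 15 with no protein-coding gene between them, so 3 adjacent genes included 1 that rose, 1 that fell and 1 that did not pass.

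The remaining members of family 38 did not pass, Slc38a3 having been left out by the rule. Slc38a10 measured 35.7, 36.7 and 38.8 FPKM in controls and 32.6, 29.9 and 34.98 in knockouts, a small separation (log2 fold change -0.19, 95% confidence interval -0.48 to 0.10, limma adjusted p = 0.319). Slc38a7, a lysosomal glutamine carrier, measured 6.22, 5.19 and 6.11 FPKM in controls and 5.05, 8.95 and 7.19 in knockouts, with overlap (log2 fold change 0.22, limma adjusted p = 0.491). The lysosomal arginine sensor Slc38a9 measured 0.577, 0.748 and 0.487 FPKM in controls and 0.873, 0.924 and 0.887 in knockouts (log2 fold change 0.34, limma adjusted p = 0.390). Slc38a6 went from 1.12 ± 0.657 to 1.76 ± 0.275 FPKM with overlap (limma adjusted p = 0.263). Slc38a5 and Slc38a11 were above 0 only in knockouts, at up to 0.531 and 0.319 FPKM, and Slc38a8 was listed at 0.

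In family 43, Slc43a2 rose and its relatives did not pass. Slc43a2 encodes LAT4, a facilitator of branched-chain amino acids, phenylalanine and methionine. It measured 3.13, 2.08 and 5.59 FPKM in controls and 7.08, 10.8 and 6.52 in knockouts. Control 3 came close to knockout 3, and the mean rose 2.26-fold, from 3.60 ± 1.80 to 8.15 ± 2.35 FPKM (log2 fold change 1.14, SE 0.32, limma adjusted p = 0.0278). The call was lost without control 1, control 2, knockout 1 or knockout 2 (log2 values from 0.85 to 1.21, limma adjusted p of 0.0584 to 0.0962) and with rescaling to the same summed FPKM (0.0512); without control 3 it held. In GENCODE M21, 9.18% of the exon bases of Slc43a2 overlap Gm45606 on the opposite strand.

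Slc43a1, or LAT3, which carries the same substrates, measured 6.20, 4.98 and 2.57 FPKM in controls and 5.52, 3.17 and 2.62 in knockouts, with near complete overlap (log2 fold change -0.24, 95% confidence interval -1.0 to 0.53, limma adjusted p = 0.650). Slc43a3, a nucleobase carrier of the same family, measured 9.18, 10.2 and 14.5 FPKM in controls and 7.96, 14.6 and 11.1 in knockouts (log2 fold change -0.03, 95% confidence interval -0.58 to 0.53, limma adjusted p = 0.951). In family 36, the proton-coupled carrier Slc36a1 of lysosomes and plasma membrane measured 6.26, 6.33 and 5.84 FPKM in controls and 6.07, 3.96 and 5.54 in knockouts, with overlap (log2 fold change -0.24, limma adjusted p = 0.403). Slc36a4 measured 1.43, 1.48 and 1.54 FPKM in controls and 2.74, 3.82 and 1.55 in knockouts; knockout 3 sat at the control level (log2 fold change 0.63, limma adjusted p = 0.146), and the gene passed only without it (log2 fold change 0.92, limma adjusted p = 0.0393).

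In family 6, the taurine carrier Slc6a6 rose, while Slc6a9, Slc6a12 and Slc6a13 fell. Of these, Slc6a13 carries taurine as well as GABA. Slc6a6 encodes TauT, which takes up taurine, the amino acid used to conjugate bile acids. It measured 8.90, 8.29 and 10.1 FPKM in controls and 16.4, 23.4 and 14.5 in knockouts. Every knockout was well above every control, and the mean rose 1.99-fold, from 9.11 ± 0.940 to 18.1 ± 4.72 FPKM (log2 fold change 0.93, SE 0.20, limma adjusted p = 0.00830).

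Slc6a13 encodes GAT2, a carrier of GABA and taurine found on hepatocytes, and was the steadiest of the tested members among controls. It measured 99.1, 101 and 101 FPKM in controls and 46.9, 42.9 and 46.4 in knockouts. The spread within each group was a few FPKM, and the mean was 2.21-fold lower, at 45.4 ± 2.15 against 100.4 ± 1.15 FPKM (log2 fold change -1.14, SE 0.12, limma adjusted p = 0.000293). Slc6a12 encodes BGT1, which carries betaine and GABA. It measured 27.3, 24.5 and 23.2 FPKM in controls and 16.0, 16.2 and 18.5 in knockouts, also without overlap (log2 fold change -0.55, SE 0.14, limma adjusted p = 0.0192). The call of Slc6a12 was lost without control 1, control 2 or knockout 1 (log2 values from -0.56 to -0.49, limma adjusted p of 0.0594 to 0.0809). Sums of periportal and pericentral hepatocyte markers were lower in every knockout as well, and their part in these falls was not tested.

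Slc6a13 and Slc6a12 are adjacent on chromosome 6 in RefSeq on GRCm38.p6, with no protein-coding gene between them. They were the only tested members whose RefSeq start windows hold the letters of an NF-kB site (GGG, any 2 bases, then TTTCC, on either strand), and TAK1 is known upstream of NF-kB, so both stretches are shown. Each is the 250 bases before an annotated start, plus strand, GRCm38.p6, with the matching letters in capitals; neither overlaps a GENCODE M21 exon. The Slc6a13 stretch is chr6:121303389-121303638, before 1 of the 3 annotated starts of the gene, with the match at -77 to -68. The Slc6a12 stretch is chr6:121342324-121342573, before 1 of its 5 starts, with the match at -133 to -124 on the opposite strand.
Slc6a13: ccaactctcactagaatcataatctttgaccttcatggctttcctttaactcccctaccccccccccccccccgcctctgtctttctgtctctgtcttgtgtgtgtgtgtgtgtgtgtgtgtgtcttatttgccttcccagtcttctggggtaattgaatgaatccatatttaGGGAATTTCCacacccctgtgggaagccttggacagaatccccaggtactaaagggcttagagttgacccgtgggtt
Slc6a12: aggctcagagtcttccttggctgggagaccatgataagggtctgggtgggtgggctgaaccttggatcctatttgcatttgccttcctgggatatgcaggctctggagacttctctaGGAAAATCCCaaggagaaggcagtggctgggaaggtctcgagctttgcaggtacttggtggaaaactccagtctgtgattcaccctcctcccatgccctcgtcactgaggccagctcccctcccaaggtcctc
These letters occur in 1.63% of the 32851 windows of 300 bases and in 2 of the 36 windows of tested members; the matches are descriptions of the sequence only. The other motifs searched were AP-1 (TGANTCA, 7.81% of all windows and 4 of 36), C/EBP (TTGCNNAA, 10.8% and 4), HNF1 (GTTAAT and ATTAAC 1 base apart, 0.00913% and 0), the glucocorticoid response element (GNACA and TGTNC 3 bases apart, 0.475% and 0), the E-box (CACGTG, 7.15% and 3), the antioxidant response element (TGACNNNGC, 12.4% and 8) and TEAD (CATTCC, 14.7% and 7). Of the 27 tested members, 20 have a window in the RefSeq table.

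Slc6a9, or GlyT1, takes up glycine. It measured 6.24, 7.74 and 11.0 FPKM in controls and 4.54, 3.91 and 5.45 in knockouts. Controls varied widely but all were above the knockouts, with a mean 1.80-fold lower in knockouts (log2 fold change -0.76, SE 0.23, limma adjusted p = 0.0383). The call was lost without control 2, control 3, knockout 1 or knockout 2 (log2 values from -0.79 to -0.55, limma adjusted p of 0.0896 to 0.110) and without the variance trend (0.0542). In GENCODE M21, 27.8% of its exon bases overlap Ccdc24 on the opposite strand. The creatine carrier Slc6a8 measured 1.44, 1.61 and 3.17 FPKM in controls and 2.55, 4.14 and 2.41 in knockouts and did not pass (log2 fold change 0.48, 95% confidence interval -0.21 to 1.18, limma adjusted p = 0.285). The other 14 genes of family 6 with a transporter role stayed at or below 0.313 FPKM, the highest being the serotonin carrier Slc6a4 in knockout 1.

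The direction of the calls went with the level in control liver. All 7 members that rose had control means between 0.197 and 9.11 FPKM, and the 4 that fell had control means between 8.33 and 238 FPKM. Of the 8 tested members with a control mean of at least 20 FPKM, 0 rose and 3 fell, while of the 18 under 10 FPKM, 7 rose and 1 fell. The same direction was present among all genes tested: at 20 FPKM or more, 8.84% rose and 37.3% fell, and under 10 FPKM 16.9% rose and 4.49% fell. A gene with a control mean under 0.5 FPKM, such as Slc7a6 at 0.197, could be tested only if its knockout values were higher, which fixes part of this pattern. The split at 20 and 10 FPKM was set after the values were seen, and the control values enter both the level and the change.

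**Figure D3:**
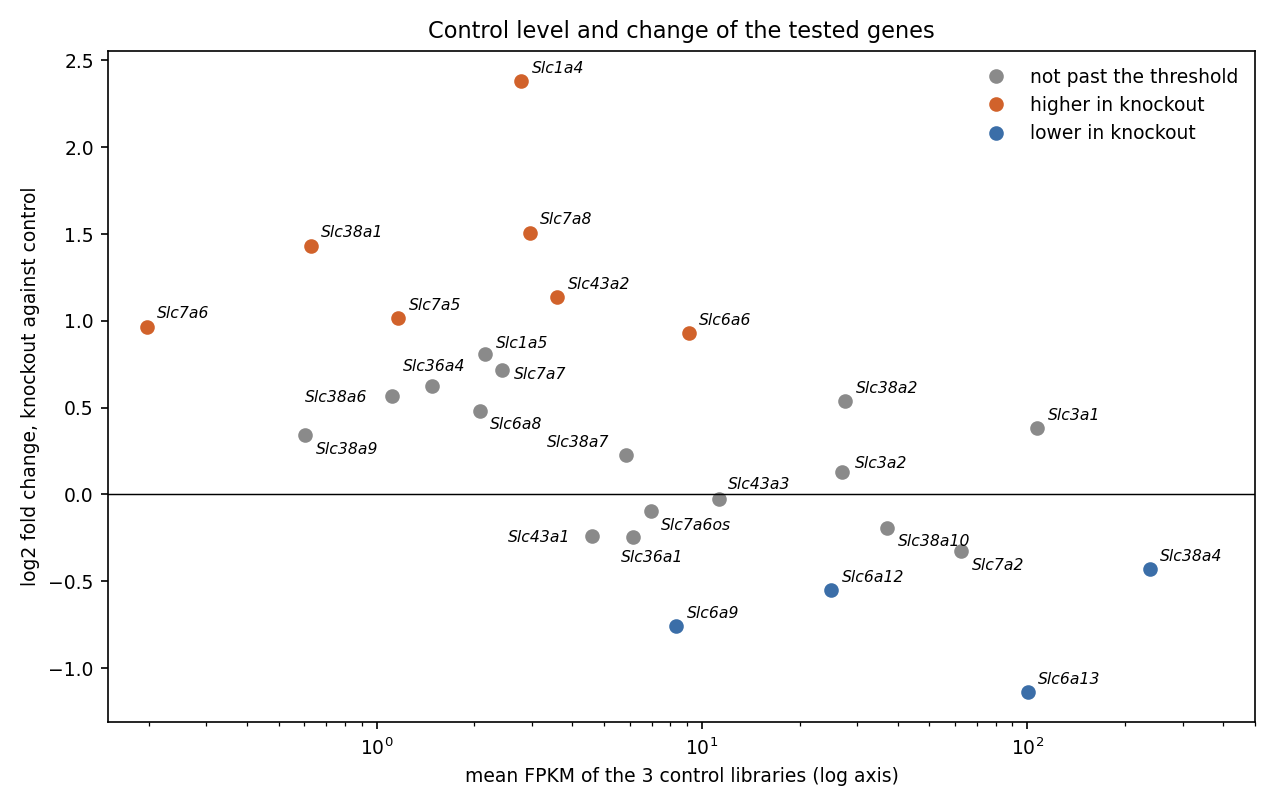
Mean control FPKM (log axis) against the log2 fold change of knockout for the 27 tested genes. Genes that were higher in knockouts lie at control means of 9.11 FPKM or less, and the 4 that were lower lie between 8.33 and 238 FPKM.

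The summed transporter signal was carried by a few genes. The 62 genes together measured 692, 694 and 711 FPKM in controls and 652, 699 and 600.0 FPKM in knockouts, so that the groups overlapped. Slc38a4, Slc6a13 and Slc3a1 made up 61.9% to 64.8% of that sum in controls and 55.5% to 56.0% in knockouts. The share of Slc6a13 went from 14.2% to 14.6% in controls to 6.14% to 7.73% in knockouts, and that of Slc3a1 from 14.5% to 16.5% in controls to 19.99% to 22.8% in knockouts.

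The other 35 genes lay below the minimum for testing. Of these, 20 were listed at 0 in every library, among them the intestinal and renal carriers Slc6a18, Slc6a20a, Slc6a20b and Slc7a9 and the neuronal carriers Slc6a2, Slc6a3 and Slc6a5. Another 15 had some signal, at most 0.918 FPKM. Of these, 10 were at 0 in all controls and above 0 in at least 1 knockout, a pattern not counted among all genes. Several of those values are 1 or 2 of the steps described for Slc7a6, as for Slc1a6, Slc6a19 and Slc38a5. A value of 0 in this table can also be a failed estimate: the albumin gene was listed at 0 in all controls, and it was left out of the tests and of the scaling.

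Other genes of amino acid handling were counted in lists chosen with earlier results of these data known. Enzymes of hepatic amino acid breakdown were lower in most cases: 26 of 37 fell and 0 rose (70.3%), beside 13% of all genes lower, and the median over the list was -0.93 on the log2 scale. Of these enzymes, 34 had a control mean of at least 20 FPKM and 25 of the 34 fell, beside 37.3% of all genes at that level. The histidine ammonia-lyase Hal, at 151, 159 and 121 FPKM in controls and 28.5, 35.8 and 30.01 in knockouts, showed the largest fall of this list (log2 fold change -2.17, SE 0.16, limma adjusted p = 4.86e-05). Amdhd1 of the same histidine pathway (log2 fold change -1.87), the serine dehydratase Sds (-1.69) and the tryptophan dioxygenase Tdo2 (-1.66) fell too, with limma adjusted p of 9.65e-05 to 0.000259. Leaving out single libraries gave 25 to 27 lower calls and 0 higher in this list.

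Urea cycle enzymes fell in 3 of 6 cases, with a median of -0.58; all 6 had control means of at least 20 FPKM, where 37.3% of all genes fell. The mitochondrial enzyme Otc measured 162, 160 and 151 FPKM in controls and 67.2, 56.7 and 70.2 in knockouts, a complete separation (log2 fold change -1.28, SE 0.13, limma adjusted p = 0.000268). Ass1 (log2 fold change -0.74, limma adjusted p = 0.0249) and Asl (-0.83, 0.0270) lost their call without control 1, control 2, knockout 1 or knockout 3 (limma adjusted p of 0.0506 to 0.0997) and without the variance trend (0.0570 and 0.0575). Lower calls in this list numbered 1 without control 1, control 2, knockout 1 or knockout 3, 3 without control 3 and 5 without knockout 2.

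Genes of the ATF4 response, which cells switch on when amino acids are short, were higher in 8 of 22 cases and lower in 1, beside 14.1% and 13% of all genes, with a median of 0.69. Asns and Psat1, both among the 8, had control means under 0.5 FPKM and were tested only through their knockout values; 6 of the other 20 were higher. Atf4 itself, which is controlled mainly at translation, measured 38.8 ± 7.67 FPKM in controls and 50.4 ± 8.13 in knockouts and did not pass (log2 fold change 0.38, limma adjusted p = 0.160). Atf3, another stress factor, measured 0.70, 0.968 and 0 FPKM in controls and 3.58, 9.97 and 3.04 in knockouts (log2 fold change 2.47, SE 0.50, limma adjusted p = 0.00624). Ddit4, an mTORC1 inhibitor, rose from 18.3 ± 3.28 to 94.4 ± 42.3 FPKM (limma adjusted p = 0.000634), and the serine synthesis enzyme Psat1 from 0.474 ± 0.285 to 2.86 ± 0.386 (0.00211). The asparagine synthetase Asns measured 0.240, 0 and 0.443 FPKM in controls and 1.61, 2.56 and 0.520 in knockouts (log2 fold change 1.41, limma adjusted p = 0.0426). The call of Asns was lost without control 1, control 2, knockout 1 or knockout 2 (log2 values from 1.06 to 1.45, limma adjusted p of 0.0942 to 0.137) and with a pseudocount of 0.1 (0.0565). Ddit3 went the other way without passing, at 21.7, 17.6 and 14.6 FPKM in controls and 8.15, 12.1 and 14.4 in knockouts (log2 fold change -0.63, limma adjusted p = 0.071). The 1 lower call was Cth (log2 fold change -0.76, limma adjusted p = 0.015). Atf4 and Ddit3 were among the 13 genes of the list that did not pass. Higher calls in this list numbered 4 to 8 with single libraries left out, 4 being without control 2 and 5 without control 1. Lower calls numbered 0 to 2, 0 being without control 1, control 2 or knockout 1.

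Amino acid carriers outside the 7 families went both ways, 3 of 14 higher and 3 lower with a median of -0.01. That is 42.9% called, beside 14.1% of all genes higher and 13% lower. Of the 4 carriers with a control mean of at least 20 FPKM, 3 fell, beside 37.3% of all genes at that level. The mitochondrial ornithine carrier Slc25a15 (175 ± 12.4 to 69.1 ± 6.73 FPKM, limma adjusted p = 0.000233) and the mitochondrial glutamate carrier Slc25a22 (96.5 ± 18.5 to 34.2 ± 5.82, 0.000594) fell. The lysosomal carrier Slc15a3, typical of myeloid cells, rose from 7.09 ± 2.56 to 18.6 ± 1.16 FPKM (limma adjusted p = 0.00236). Neutrophil and monocyte marker sums were higher in every knockout, while the macrophage sum of control 3 lay within the knockout range. The part of these cells in the Slc15a3 rise was not tested. The lysosomal cationic carrier Pqlc2 rose from 3.99 ± 0.409 to 8.99 ± 3.69 FPKM (limma adjusted p = 0.0192), a call lost without control 2 or control 3 (0.0531 to 0.0563). Genes of amino acid sensing by mTORC1 passed in 4 of 25 cases (1 higher, 3 lower, median -0.14) and aminoacyl-tRNA synthetases in 4 of 20 (2 higher, 2 lower, median -0.02), both below the 27.0% of all genes tested. The 1 higher mTORC1 gene was tested only through its knockout values. With single libraries left out, mTORC1 calls numbered 0 to 1 higher (0 except without control 1) and 1 to 2 lower (1 without control 1, control 2 or knockout 3). Synthetase calls numbered 0 to 2 higher (0 without control 1, control 2, knockout 1 or knockout 2, and 1 without knockout 3) and 1 lower whichever library was left out, and rescaling to the same summed FPKM left 0 higher.

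**Figure D4:**
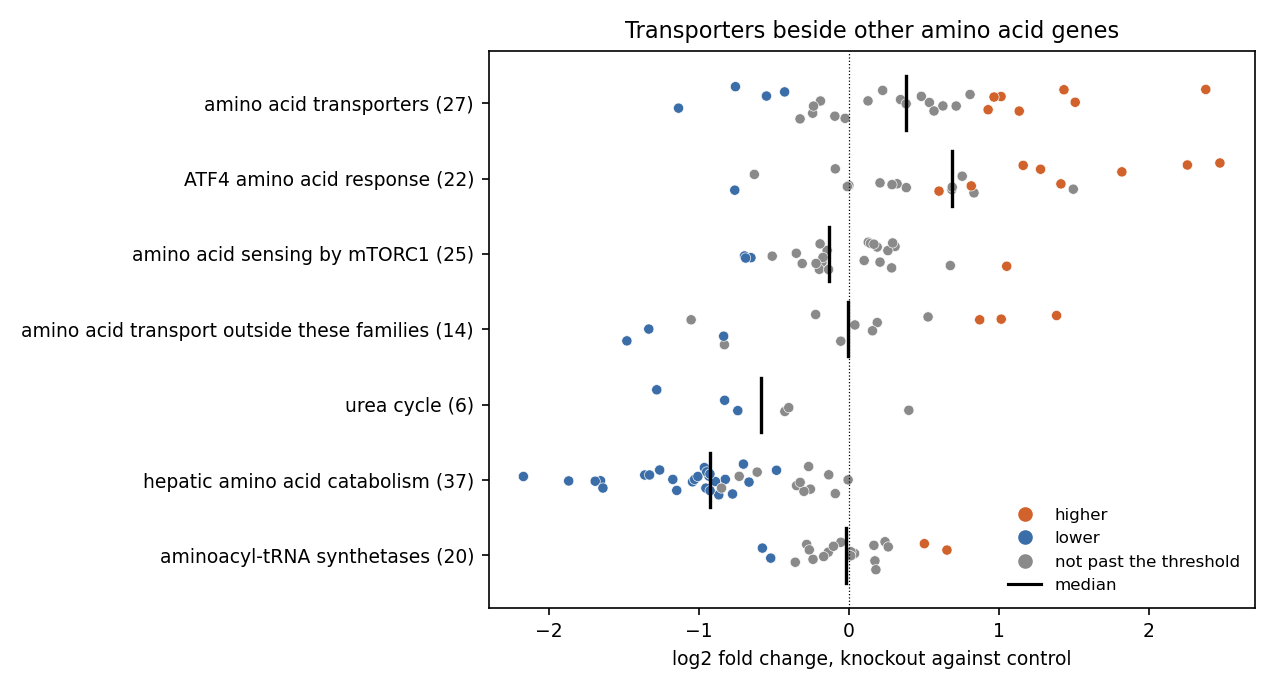
Log2 fold change of knockout against control for tested amino acid transporters (with Slc7a6os) and 6 other lists of amino acid genes (number of tested genes in brackets), 1 point per gene with the median as a black line. The breakdown enzymes lie mostly on the left (median -0.93), the ATF4 genes mostly on the right (median 0.69), and the transporters spread from -1.14 to 2.38.

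**Figure D5:**
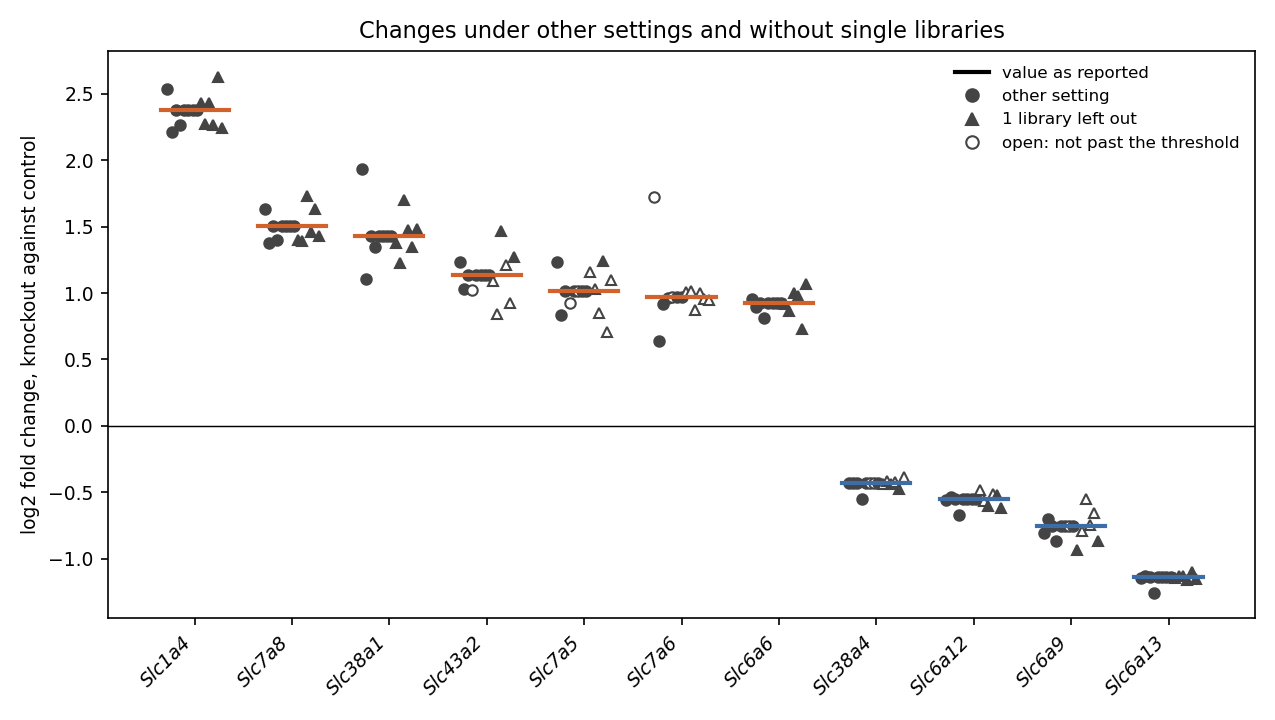
Log2 fold change of the 11 transporter genes that passed, as reported (coloured line) and under each alternative (circles for other settings, triangles for 1 library left out; open where not past the threshold). Every symbol lies on the same side of 0 as the reported value, and open symbols are lacking for Slc1a4, Slc7a8, Slc38a1, Slc6a6 and Slc6a13.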

How the data were processed

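Whole liver RNA of 6 libraries was compared, 3 per group. The authors deposited FPKM values per gene, 1 column per library; Trimmomatic (0.33), TopHat2 (version 2.1.0), Cuffnorm (version 2.2.1), Cuffdiff (version 2.2.1) and the mouse build mm9 are named in the submitters' processing notes, which give no gene annotation. FPKM divides by transcript length and library size. If library size is the plain total, a few very abundant genes can shift all others. Rescaling by the median ratio left 7 members higher and 4 lower, with the median of all genes at 0.0012. The scaling of the deposited values is not stated in the sources used here. From these values, log2(FPKM + 0.5) was fitted with limma (version 3.58.1, R 4.3.3), using a variance trend and two-sided tests, for genes averaging 0.5 FPKM or more, without Alb. Replicates are not stated to be separate animals, so the tests measure spread among libraries that may be technical.

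The members and lists were chosen with earlier results of these data known. The rule for named genes takes every member that passed and the 2 most abundant per role. It also takes members at 5 FPKM or more that did not pass, and up to 4 called genes per related list. It was not followed for the mTORC1 and synthetase lists, which are given by counts only. Genes outside the rule (such as Atf4) were chosen after their values were seen. Depth ratios came from the commonest ratio of low values (under 0.5 FPKM) to control 1, and hold only if values were scaled by library size. Alternatives were other pseudocounts, filters, scalings and variance models, a block for replicate number, and leaving out libraries 1 at a time; those for the related lists were added after the data were seen. The fit was tested on simulated data. Start windows are RefSeq, GRCm38.p6; exon overlaps are GENCODE M21. Figures used matplotlib 3.10.9.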

Additional observations from a re-analysis of the deposited data

How the results depend on the processing

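Of the 27 tested genes, which include Slc7a6os, 0 changed direction while called under the alternatives run. Over the 14 alternatives per gene (13 for Slc7a6 and Slc38a9, which a filter at a mean of 1 FPKM leaves out), 34 values lost their call, 6 gained one and 336 kept their side of the threshold. Transporters called higher numbered 7, and 4 to 9 with 1 library left out (4 without control 1, control 2 or knockout 2). Transporters called lower numbered 4, and 1 to 3 with 1 library left out (1 without control 2 or knockout 1, 2 without control 1), and 2 with eBayes without trend. Leaving out a library also means fewer samples. All genes called lower numbered 1534, and 935 to 1484 with 1 library left out (935 without control 2 and 990 without control 1). Without a filter on low values, 42 of the 62 genes were tested, with 6 higher and 3 lower.

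The labels do not say whether replicate numbers pair the samples. Same-numbered control and knockout libraries correlated at -0.01, -1.23e-04 and 0.00151 in their deviations from the group means. Other pairs of libraries ranged from -0.0356 to 0.0375. Such correlations cannot show that the libraries were unpaired. With the replicate block, 6 transporters were higher and 3 lower, and 1575 and 1385 of all genes; the calls of Slc7a5, Slc7a6, Slc38a4 and, outside the families, Asns were not made (limma adjusted p of 0.0506, 0.0741, 0.0715 and 0.0648), and Slc1a5 passed (0.0404). Absolute depth is unknown, and values that are a few steps above 0, as for Slc7a6, may rest on few fragments.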
